A study of Mus musculus with 10 samples.

Results

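The collagen and laminin chains are the protein subunits of the main structural polymers of the extracellular matrix. They were taken here as every row of the count table whose gene symbol is that of a numbered collagen chain (Col, number, a, number) or of a numbered laminin chain (Lama, Lamb or Lamc and a digit), without antisense transcripts, with at least 10 estimated counts in 3 or more of the 10 libraries. Of 52178 genes in the table, 55 symbols matched and 42 passed the count rule, 32 of them collagen and 10 laminin chains. The 13 that did not pass were Col2a1, Col4a6, Col9a1, Col9a3, Col10a1, Col11a1, Col17a1, Col19a1, Col22a1, Col24a1, Col25a1, Col26a1 and Lama1. All libraries were made from hand-picked pancreatic islets of C57Bl/6 male retired breeder mice, released by collagenase injected into the pancreatic duct and placed in medium with 11 mM glucose. Exercised mice (5 libraries, numbered 6 to 10) ran on a treadmill for 1 hour a day, 5 times per week over 2 weeks, at 17 cm/s and an incline of 5 degrees, after 3 days of acclimatization, and sedentary mice (5 libraries, numbered 1 to 5) did not train. Neither group carries a stated allele or receives an agent. The labels do not tie libraries to separate animals, so p-values measure the spread between these libraries.

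Collagens are built from 3 alpha chains wound into a triple helix, and the chains sort into classes by the structure they form. Fibrillar collagens pack into the banded fibrils of connective tissue and are made mostly by fibroblasts and related mesenchymal cells, whereas type IV collagens and laminin trimers (1 alpha, 1 beta and 1 gamma chain) polymerise into the sheets of basement membranes. In the islet a dense capillary bed brings its own basement membrane, and a capsule of interstitial matrix and basement membrane lies between the islet and the exocrine tissue.

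Library totals lay between 15081922 and 23222704 counts. The islet label was met by beta cell markers in 8 libraries, where the summed level of 10 markers lay between 134650 and 193980 CPM (counts scaled to library size with the trimmed mean of M-values), and less so in sedentary 1 (8107 CPM) and sedentary 2 (37323 CPM). These 2 libraries also held the highest summed levels of 12 small intestinal epithelium markers, at 11882 and 17714 CPM, against 266 to 711 CPM in exercise libraries and 2675 to 3530.1 CPM in the other sedentary libraries. Sedentary 1 and 2 stand apart from the rest, and results that rest on them are given with and without them. Exercise libraries held more of 12 acinar markers, at summed levels of 110730 to 293930 CPM, against 49291 to 100200 CPM in sedentary libraries. The acinar sum was above the beta cell sum in exercise 6 and 9 and in sedentary 1 and 2. No marker of the endothelial, acinar, beta or Schwann cell lists was at 0 in any library. In bulk RNA, fewer cells of a type and less RNA per cell cannot be told apart.

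Of the 42 chains, 38 passed edgeR's filter on low counts and were tested. Col7a1 and Col20a1 rose, Lamb3 fell and 35 did not pass the test, so that 7.89% of the tested chains were called, below the 13.9% of all 15298 genes tested. The background was 2.44% of genes higher and 11.4% lower. At an unadjusted p under 0.05 there were 7 chains, DESeq2 called 4 and limma-voom called 1. Over all 15298 genes tested the same counts were 5105, 3739 and 516. Without sedentary 1 and 2, 14 of 40 tested chains had an unadjusted p under 0.05, beside 4447 of 15692 genes. The median log2 fold change (exercise over sedentary) was 0.28 over the tested chains and -0.00 over all genes tested. Without sedentary 1 and 2 it was -0.05 over 40 tested chains and 0.03 over all genes, Col7a1 rose and Col6a1 fell, and 12.8% of all genes were called. Lamc3, Col8a2, Col23a1 and Col6a4 did not pass the filter. Lamc3 averaged 0.722 CPM in exercise and 0.365 CPM in sedentary libraries, and Col8a2 0.488 and 0.348 CPM. Col23a1 averaged 0.326 and 0.646 CPM and Col6a4 0.258 and 1.16 CPM, and these 2 reached 10 counts in 3 and 4 sedentary libraries and in 0 exercise libraries.

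**Figure D1:**
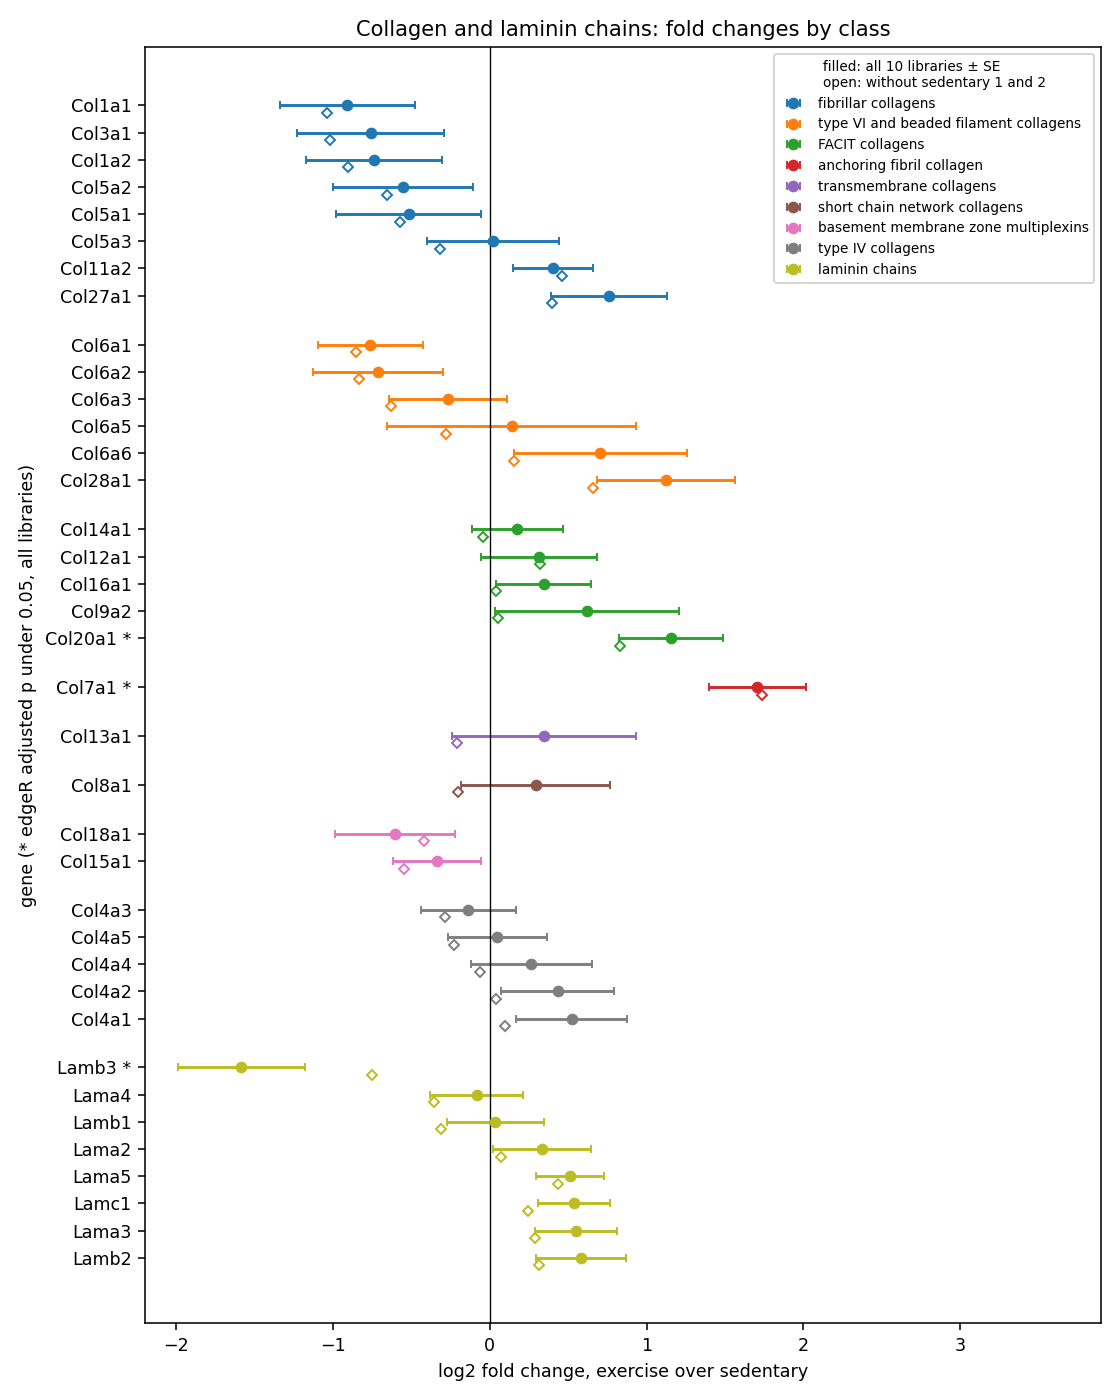
Log2 fold change (exercise over sedentary, edgeR) of 37 of the 38 tested chains by class, as filled points with their standard errors over all 10 libraries, and as open diamonds without sedentary 1 and 2. Col7a1 and Col20a1 lie to the right and Lamb3 to the left as the 3 called chains, while Col1a1, Col3a1 and Col1a2 lie left of 0 and the open diamonds of all plotted basement membrane chains but Lamb3 lie left of the filled points.

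The fibrillar collagens had the lowest median log2 fold change of any class, although none of the 8 chains passed the test. Of the 8 log2 fold changes, 5 were negative and 3 positive, from -0.91 for Col1a1 to 0.76 for Col27a1, with a median of -0.54. By edgeR 0 were called and 0 had an unadjusted p under 0.05, and DESeq2 and limma-voom called 0 each. Without sedentary 1 and 2 the median was -0.61, 4 chains had an unadjusted p under 0.05 and again 0 were called. In that setting 4447 of all 15692 genes tested had such a p.

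Col3a1, the single chain of the type III homotrimer, was the most abundant fibrillar chain. It had 13.2, 8.06, 14.0, 13.8 and 15.8 CPM in exercise 6 to 10, against 25.2, 4.31, 16.2, 19.97 and 43.9 CPM in sedentary 1 to 5. Of the sedentary libraries, 4 were above every exercise library and sedentary 2 was below them all. The log2 fold change was -0.76 ± 0.47 (SE, n = 5 each, edgeR adjusted p = 0.265), and -1.02 without sedentary 1 and 2 (adjusted p = 0.0617).

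Col1a2, the alpha 2 chain of type I collagen, had 8.65, 6.57, 8.79, 11.7 and 9.85 CPM in exercise 6 to 10, against 20.2, 3.60, 10.5, 13.7 and 27.96 CPM in sedentary 1 to 5. The groups overlapped, with sedentary 2 lowest and sedentary 5 highest of all. Its log2 fold change was -0.74 ± 0.43 (edgeR adjusted p = 0.246). Col1a1, its partner alpha 1 chain, showed the same order of extremes, with 2.60 to 6.25 CPM in exercise libraries and 2.45 to 15.4 CPM in sedentary libraries. The log2 fold change of Col1a1 was -0.91 ± 0.43 (edgeR adjusted p = 0.164), and without sedentary 2 alone it was -1.15 and passed the test (adjusted p = 0.0460). Counts of Col1a1 were below those of Col1a2 in all 10 libraries, at 0.399 to 0.723 of them in exercise and 0.553 to 0.684 in sedentary libraries.

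The promoter stretches of the 2 most abundant fibrillar chains are printed because these chains, read from different genes, had the same lowest and highest library. They are the 250 bases before the RefSeq start (GRCm38.p6, plus strand), at chr1:45311288-45311537 for Col3a1 and chr6:4505368-4505617 for Col1a2. Capitals mark every match, on either strand, to the CCAAT box, to the GC box GGGCGG, to the TATA element TATAAA or to CAGACA, a SMAD-binding type of element.
Col3a1: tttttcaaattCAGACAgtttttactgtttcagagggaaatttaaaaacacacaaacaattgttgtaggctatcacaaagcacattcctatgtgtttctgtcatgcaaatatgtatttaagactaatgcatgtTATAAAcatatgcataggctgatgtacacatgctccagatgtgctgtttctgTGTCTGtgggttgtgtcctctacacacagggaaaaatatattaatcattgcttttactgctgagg
Col1a2: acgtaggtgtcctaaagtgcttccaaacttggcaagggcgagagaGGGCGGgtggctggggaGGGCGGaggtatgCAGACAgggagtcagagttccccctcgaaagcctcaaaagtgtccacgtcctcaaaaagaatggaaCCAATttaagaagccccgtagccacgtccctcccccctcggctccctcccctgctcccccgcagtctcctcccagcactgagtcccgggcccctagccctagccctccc
Both stretches hold CAGACA, which 17.1% of 32851 RefSeq promoters of that length hold. Only the Col1a2 stretch holds GGGCGG (32.7% of promoters) and CCAAT (33.8%), and only that of Col3a1 holds TATAAA (12.4%). Among the 32 chains with an entry, 10 hold CAGACA, 20 hold GGGCGG, 10 hold CCAAT and 3 hold TATAAA. A match describes the letters and is no evidence of binding.

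The minor fibrillar chains divided in direction. Col5a1 and Col5a2, which nucleate type I fibrils, had log2 fold changes of -0.52 and -0.55, with sedentary 2 below every other library for both. Col5a3 was at 0.02, and at -0.32 without sedentary 1 and 2. Col11a2 and Col27a1, chains best known from cartilage, were at 0.40 and 0.76, and at 0.46 and 0.39 without these libraries. Col27a1 reached 12.8 to 15.4 CPM in exercise 6, 7 and 10 but 5.86 and 7.72 CPM in exercise 8 and 9, against 3.15 to 8.97 CPM in sedentary libraries. Across the 8 fibrillar chains, sedentary 2 was the lowest of 10 libraries for 6 chains and sedentary 5 the highest for 5.

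Summed CPM of 12 fibroblast markers lay between 143 and 198 in exercise libraries and between 162 and 401 in sedentary libraries, with sedentary 5 highest. Of 10 tested, 0 were higher and 2 lower (Fbln1 and Smoc2), and 1 marker, Mfap5, was at 0 in sedentary 2. A few genes carried this sum. Gpx3 gave 114 to 172 CPM of it in exercise libraries and 32.2 to 305 CPM in sedentary libraries, and in sedentary 2 Fbln1 and Smoc2 gave 78.2 and 44.6 CPM, where Dcn was at 2.23 CPM. Per 100 CPM of these markers, Col3a1 stood at 5.28 to 9.74 CPM in exercise libraries and 2.40 to 15.2 CPM in sedentary libraries. The part of fibroblast content in the fibrillar values was not tested.

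**Figure D2:**
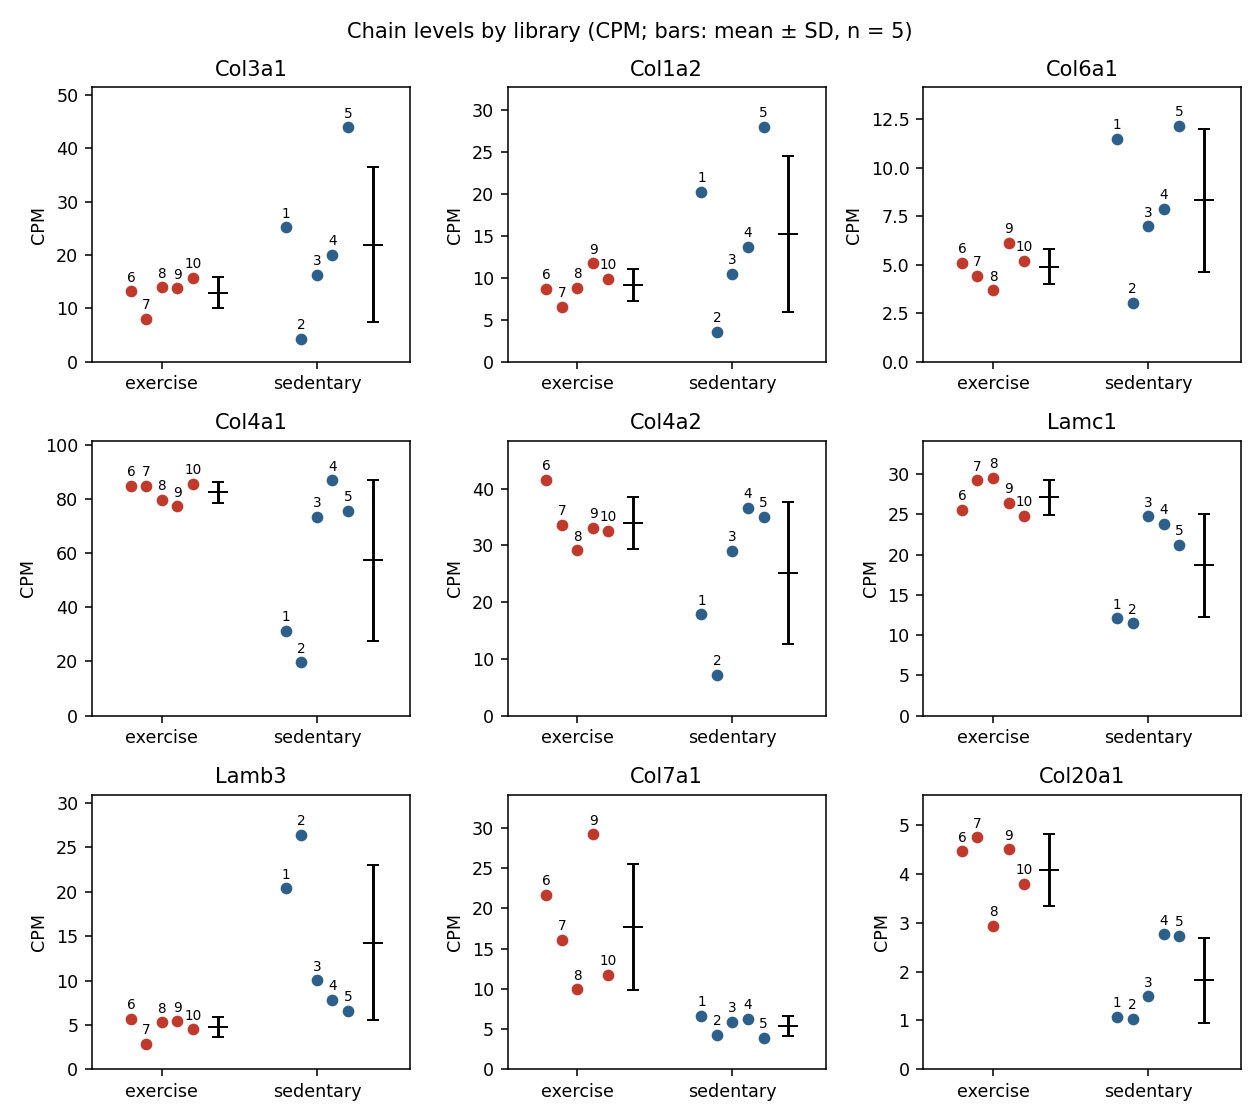
CPM of selected chains in each library, with exercise libraries left of sedentary libraries, each point labelled by its library number and bars for the mean ± SD (n = 5). Col7a1 does not overlap between the groups, the 5 exercise libraries of Col4a1 lie close together at 77.2 to 85.6 CPM, and sedentary 1 and 2 are the low Col4a1 libraries and the high Lamb3 libraries.

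The basement membrane chains, type IV collagens and laminins together, mostly had positive log2 fold changes that did not pass the test. Of 15 chains, 14 were tested, 0 rose and 1 fell (Lamb3), with 11 positive and 3 negative values and a median of 0.32. For 3 the unadjusted p was under 0.05, and DESeq2 called 1 and limma-voom 0. Without sedentary 1 and 2 the median was 0.04 over 15 tested chains, of which 0 were called by edgeR and 3 had an unadjusted p under 0.05. Sedentary 2 was the lowest of the 10 libraries for 7 of the 15 chains and sedentary 1 for 5.

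Col4a1, the alpha 1 chain of the ubiquitous type IV network, was the most abundant chain of all. It had 85.0, 84.8, 79.6, 77.2 and 85.6 CPM in exercise 6 to 10, against 31.3, 19.7, 73.3, 86.8 and 75.6 CPM in sedentary 1 to 5. The 3 sedentary libraries numbered 3 to 5 lay around the exercise range, and sedentary 1 and 2 far below it. The log2 fold change was 0.52 ± 0.35 (edgeR adjusted p = 0.307), and 0.09 ± 0.09 without those 2 libraries (adjusted p = 0.519).

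Col4a2, the alpha 2 chain that joins Col4a1 in the same trimer, had 41.5, 33.6, 29.1, 33.1 and 32.6 CPM in exercise 6 to 10, against 17.8, 7.14, 29.0, 36.6 and 35.0 CPM in sedentary 1 to 5. Sedentary 1 and 2 were again the low libraries. The log2 fold change was 0.43 ± 0.36 (edgeR adjusted p = 0.392), and 0.04 without them. The ratio of Col4a1 to Col4a2 counts stayed within 2.05 to 2.73 in exercise libraries and 1.76 to 2.75 in sedentary libraries, a difference of 0.09 on the log2 scale (exact two-sided permutation test, adjusted p = 0.733). These genes lie head to head on opposite strands and share a promoter, of which the whole stretch between the 2 RefSeq starts is printed (GRCm38.p6, plus strand, chr8:11312805-11312826), with the GC box in capitals.
Col4a1/Col4a2: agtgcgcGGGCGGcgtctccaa
Col4a3, Col4a4 and Col4a5, which form the network of specialised basement membranes such as that of the kidney glomerulus, stayed at 1.67 CPM or below in every library. Their log2 fold changes were -0.14, 0.27 and 0.05, and without sedentary 1 and 2 they were -0.29, -0.06 and -0.23. Of the 5 type IV chains 0 were called, 0 had an unadjusted p under 0.05, and DESeq2 and limma-voom called 0.

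Summed CPM of 12 endothelial markers was 333 to 430 in exercise libraries and 101 to 400 in sedentary libraries, with 187 in sedentary 1 and 101 in sedentary 2. None of the 12 was called by edgeR, 1 had an unadjusted p under 0.05, and DESeq2 and limma-voom called 0. Per 100 CPM of these markers Col4a1 stood at 19.7 to 23.9 CPM in exercise libraries and 16.8 to 23.3 CPM in sedentary libraries. The highest library was 1.43-fold above the lowest on that scale and 4.41-fold above it in CPM. Col4a2 stood at 7.81 to 9.68 and 7.05 to 9.54 CPM per 100 CPM. The part of endothelial content in the type IV values was not tested.

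Lamc1, the gamma chain shared by most laminin trimers, was the most abundant laminin chain. It had 25.5, 29.2, 29.5, 26.4 and 24.8 CPM in exercise 6 to 10, against 12.1, 11.4, 24.8, 23.8 and 21.2 CPM in sedentary 1 to 5. Every exercise library was above every sedentary library, by a narrow margin outside sedentary 1 and 2, and the log2 fold change of 0.54 ± 0.23 did not pass the test (edgeR adjusted p = 0.134). It was 0.25 ± 0.10 without sedentary 1 and 2 (adjusted p = 0.144). Lamc1 was 1 of 3 chains whose exercise libraries all lay above, with Col7a1 and Col20a1, of 38 tested; over all genes this share was 6.28%. Only Lamb3 lay wholly below, against 11.3% of all genes.

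Lama5 and Lamb2, chains of the mature vascular and epithelial laminins, had log2 fold changes of 0.51 and 0.58, and Lama3 had 0.55. None of the 3 passed the test, and without sedentary 1 and 2 the values were 0.44 for Lama5, 0.31 for Lamb2 and 0.29 for Lama3. Lama4, an endothelial laminin alpha chain, and Lamb1 were at -0.08 and 0.03, and at -0.36 and -0.31 without sedentary 1 and 2. The ratio of Lamb2 to Lamb1 counts was 1.93, 1.45, 1.00, 1.74 and 1.89 in exercise 6 to 10, against 1.24, 1.38, 1.25, 0.870 and 1.05 in sedentary 1 to 5. The groups overlapped, and the difference of 0.45 on the log2 scale had an adjusted p of 0.222 over 7 ratios (exact two-sided permutation test). For Lama5 to Lama4 the difference was 0.55 (exact permutation test, adjusted p = 0.403).

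Lamb3 and Lama3 are the beta and alpha chains of an epithelial laminin. Lamb3 had 5.69, 2.86, 5.29, 5.41 and 4.49 CPM in exercise 6 to 10, against 20.4, 26.4, 10.0, 7.85 and 6.55 CPM in sedentary 1 to 5. The groups did not overlap, and sedentary 1 and 2 were the high libraries. The log2 fold change was -1.59 ± 0.40 (edgeR adjusted p = 0.0293), and -0.75 ± 0.23 without sedentary 1 and 2, where it did not pass the test (adjusted p = 0.0613). The call was also lost without sedentary 1, without sedentary 2 and without any 1 of the 5 exercise libraries, at -1.66 to -1.24 and adjusted p of 0.0559 to 0.0749.

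Set against its alpha chain partner, Lamb3 had 0.785, 0.392, 0.683, 0.944 and 0.877 counts per Lama3 count in exercise 6 to 10, against 6.802, 8.59, 1.74, 1.20 and 1.54 in sedentary 1 to 5. Lama3 counts exceeded those of Lamb3 in every exercise library and in no sedentary library. The summed small intestinal markers, of which 12 of 12 fell and Cdx1 was at 0 in exercise 7, moved with Lamb3. Per 1000 CPM of those markers, however, Lamb3 stood at 6.59 to 20.3 CPM in exercise libraries and 1.49 to 2.93 CPM in sedentary libraries, in the opposite order to CPM. The part of intestinal content in the Lamb3 value was not tested.

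The comparison of fibrillar with basement membrane chains gave a difference between the class medians of -0.86 on the log2 fold change scale, which ranged between -1.11 and -0.49 when 1 library was left out at a time and was -0.65 without sedentary 1 and 2. Within each library, 1 pair of chains from these classes was compared, Col3a1 against Col4a1. The log2 ratio of their counts was -2.69, -3.39, -2.51, -2.48 and -2.44 in exercise 6 to 10, against -0.31, -2.19, -2.17, -2.12 and -0.78 in sedentary 1 to 5. All exercise libraries were below all sedentary libraries, 3 of which, numbered 2 to 4, lay close to them. The means were -2.70 ± 0.40 in exercise and -1.51 ± 0.90 in sedentary libraries (SD, n = 5 each). The difference of -1.19 had p = 0.00794 in an exact two-sided permutation test, the smallest that 5 against 5 can give, and an adjusted p of 0.0556 over 7 ratios. With 7 ratios, the smallest p that 5 against 5 allows passes the threshold after adjustment only where other ratios also have small p. The ratio did not pass, and the adjusted value says nothing of stability. Leaving out sedentary 1 and 2, the difference was -1.01.

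Over all tested chains other than Col4a1 itself, the ratio to Col4a1 in exercise libraries was wholly below that in sedentary libraries for 7 of 37 and wholly above for 0. The 7 were Col1a1, Col3a1, Col6a1, Col6a3, Col15a1, Lamb1 and Lamb3, and thus held 2 of the 8 fibrillar chains. Over all genes the shares were 11.7% below and 0.948% above and the median log2 difference was -0.71. The median was -0.99 for fibrillar chains, -0.63 for type VI and beaded filament chains and -0.31 for the other basement membrane chains, and these values share Col4a1 as the denominator.

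**Figure D3:**
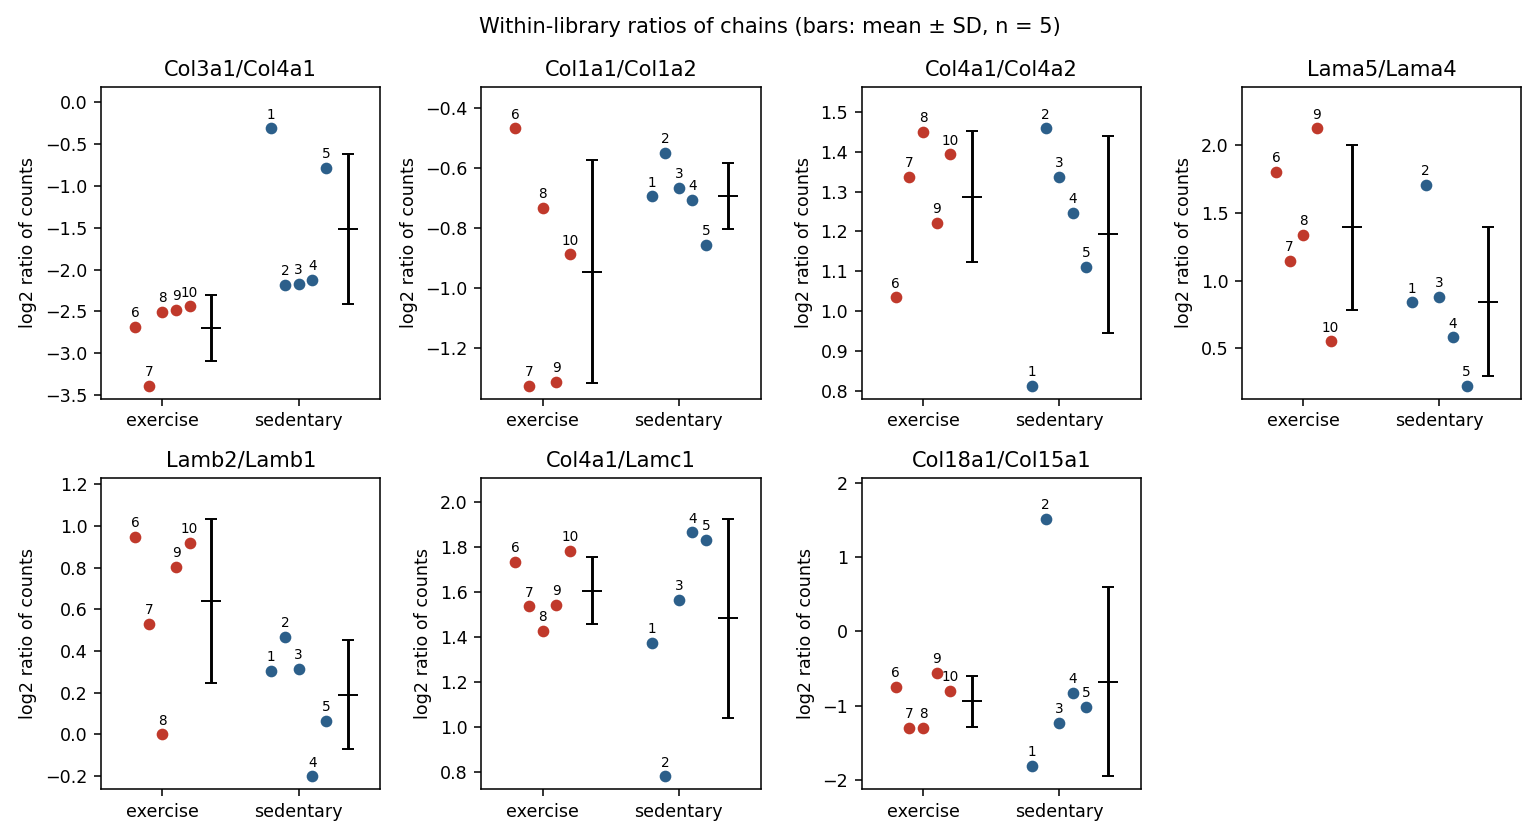
Log2 ratio of counts (0.5 added) for 7 chain pairs in each library, exercise left of sedentary, with bars for the mean ± SD (n = 5). Col3a1 to Col4a1 is the pair without overlap between the groups, with sedentary 1 and 5 far above the rest, and Col4a1 to Col4a2 stays between 0.81 and 1.46 in all 10 libraries.

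The chains of the basement membrane zone and the fibril surface came next. Col7a1 encodes type VII collagen, the anchoring fibril that ties epithelial basement membranes to the stroma beneath. It had 21.7, 16.1, 9.94, 29.2 and 11.7 CPM in exercise 6 to 10, against 6.66, 4.31, 5.93, 6.30 and 3.91 CPM in sedentary 1 to 5. Every exercise library was above every sedentary library, with exercise 8 and 10 the nearest to them. Col7a1 rose, with a log2 fold change of 1.71 ± 0.31 over all libraries (edgeR adjusted p = 0.00907) and of 1.74 ± 0.36 without sedentary 1 and 2 (adjusted p = 0.0115). It passed the test in all 17 alternatives run.

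The promoter of Col7a1 is printed as that of the chain with the steadiest call, again as the 250 bases before the RefSeq start (GRCm38.p6, plus strand, chr9:108953336-108953585), with the same motifs in capitals.
Col7a1: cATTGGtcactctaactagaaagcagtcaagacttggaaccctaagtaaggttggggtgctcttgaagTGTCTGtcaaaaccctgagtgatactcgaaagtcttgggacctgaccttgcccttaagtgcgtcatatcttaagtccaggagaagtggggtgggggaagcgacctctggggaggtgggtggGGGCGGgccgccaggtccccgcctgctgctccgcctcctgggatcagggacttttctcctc
It holds 1 match to CCAAT, 1 to GGGCGG, 1 to CAGACA and 0 to TATAAA. Summed CPM of 12 acinar markers moved with Col7a1, at 110730 to 293930 in exercise libraries and 49291 to 100200 in sedentary libraries, and 7 of the 12 rose. Per 10000 CPM of these markers Col7a1 stood at 0.775 to 1.18 CPM in exercise libraries and 0.664 to 0.873 CPM in sedentary libraries. The groups overlapped through exercise 8 alone, and the other exercise libraries, at 0.994 to 1.18 CPM, lay above every sedentary library. The highest library was 1.77-fold above the lowest on that scale and 7.47-fold above it in CPM. The part of acinar content in the Col7a1 value was not tested.

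**Figure D4:**
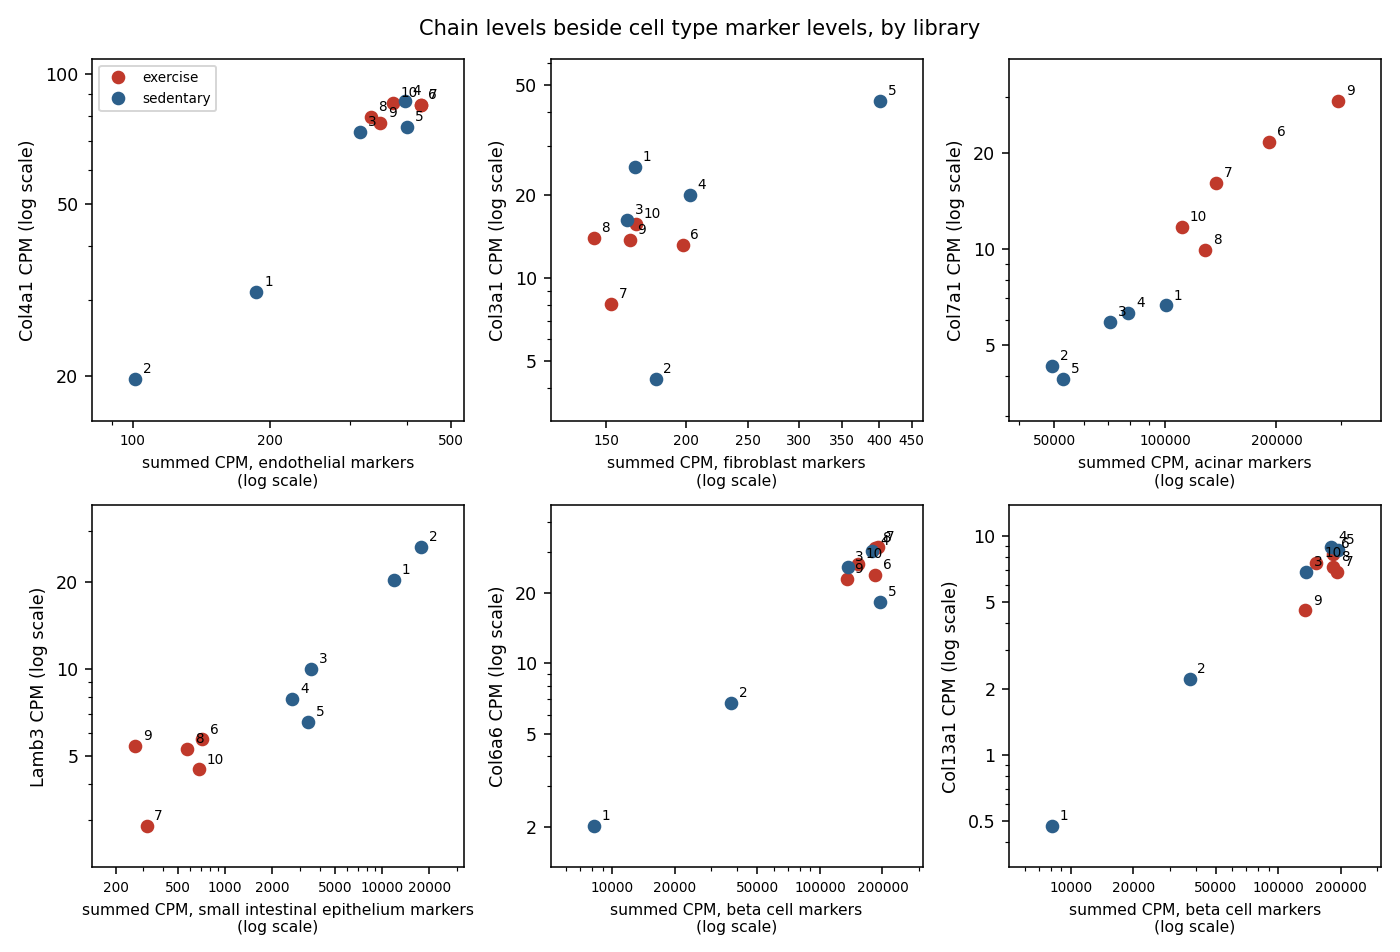
CPM of 6 chains against the summed CPM of a cell type's markers in each library, both on log axes, with points labelled by library number. Col7a1 is highest in the libraries with the highest acinar markers, Col4a1, Col6a6 and Col13a1 are low where the endothelial or beta cell markers of sedentary 1 and 2 are low, Lamb3 is highest in these 2 libraries, and Col3a1 is highest in sedentary 5.

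Col15a1 and Col18a1 are the multiplexins, proteoglycan collagens that link basement membranes to underlying fibrils. Col15a1 had 10.3, 11.8, 7.99, 12.5 and 11.8 CPM in exercise 6 to 10, against 14.3, 5.78, 13.7, 14.8 and 19.9 CPM in sedentary 1 to 5. The sedentary libraries other than number 2 were above all exercise libraries. Its log2 fold change was -0.34 (edgeR adjusted p = 0.393) and -0.55 without sedentary 1 and 2 (adjusted p = 0.0663). Col18a1, the precursor of endostatin, had 3.22 to 8.49 CPM in exercise libraries and 4.04 to 16.6 CPM in sedentary libraries, highest in sedentary 2, with a log2 fold change of -0.61 (edgeR adjusted p = 0.276). The 2 multiplexins thus differed in their extreme library, sedentary 2 being lowest for Col15a1 and highest for Col18a1.

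The FACIT collagens (fibril-associated collagens with interrupted triple helices) coat fibrils and do not form them. Of 5 chains, 1 rose and 4 did not pass the test. Col20a1 had 4.47, 4.75, 2.93, 4.50 and 3.80 CPM in exercise 6 to 10, against 1.07, 1.04, 1.495, 2.76 and 2.74 CPM in sedentary 1 to 5. The groups did not overlap, with exercise 8 only just above sedentary 4 and 5. It rose, with a log2 fold change of 1.16 ± 0.33 (edgeR adjusted p = 0.0433), a call that was lost in 12 of 17 alternatives. Among these were leaving out sedentary 1 and 2 (0.83, adjusted p = 0.0647) and leaving out any 1 library other than sedentary 4 or 5 (adjusted p = 0.0635 to 0.102). In mouse, Col20a1 is among the genes of Schwann cells. Summed CPM of 9 Schwann cell markers was 31.1 to 46.8 in exercise libraries and 48.2 to 262 in sedentary libraries, most of it Erbb3, which fell. Of the 5 tested markers Cdh19 rose, at 1.78 CPM in exercise and 0.43 CPM in sedentary libraries on average. The part of Schwann cells in the Col20a1 value was not tested.

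Col16a1 was at 3.12 to 4.13 CPM in exercise libraries and 1.55 to 4.06 CPM in sedentary libraries, and its log2 fold change of 0.34 did not pass the test (edgeR adjusted p = 0.413) and was 0.04 without sedentary 1 and 2. Col12a1, Col14a1 and Col9a2 had log2 fold changes of 0.31, 0.18 and 0.62, and none passed. Leaving out sedentary 1 and 2, Col12a1 was at 0.32, Col14a1 at -0.04 and Col9a2 at 0.05.

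Type VI collagen forms beaded microfilaments beside cells, with Col6a1 and Col6a2 as the obligate partners of a longer chain such as Col6a3, Col6a5 or Col6a6. Of 7 chains of this class, which here includes Col28a1, 6 were tested and 0 were called, with 2 at an unadjusted p under 0.05, 1 called by DESeq2 and 0 by limma-voom. The chains divided in direction, with log2 fold changes from -0.76 for Col6a1 to 1.13 for Col28a1 and a median of -0.06. Leaving out sedentary 1 and 2, the median was -0.46, with 2 positive and 4 negative values, and Col6a1 was lower. There 4 chains had an unadjusted p under 0.05, as did 4447 of all 15692 genes tested. Col6a4, not tested for its low counts, passed the filter when some libraries were left out. It was lower without exercise 6 (-2.50, edgeR adjusted p = 0.0415), without sedentary 3 (-2.36, adjusted p = 0.0170) and with no filter (-2.13, adjusted p = 0.0484). It was not called without any 1 of exercise 7 to 10. Col6a4 met the count rule through 4 sedentary and 0 exercise libraries. The rule thus favoured that direction, and these values are no support for a fall.

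Col6a1 had 5.08, 4.42, 3.68, 6.11 and 5.22 CPM in exercise 6 to 10, against 11.5, 3.05, 6.98, 7.89 and 12.2 CPM in sedentary 1 to 5. As for Col3a1, Col1a2 and Col1a1, sedentary 2 was lowest and sedentary 5 highest of the sedentary libraries and of all. The log2 fold change was -0.76 ± 0.33 (edgeR adjusted p = 0.141). Without sedentary 1 and 2 it was -0.85 ± 0.22 and passed the test (adjusted p = 0.0305), as it did without sedentary 2 alone (-0.98, adjusted p = 0.0259), beside 8.68% of all genes lower in that comparison. Col6a2 had -0.71 and Col6a3 -0.27, and without sedentary 1 and 2 they had -0.84 and -0.63.

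Col6a6 had 23.8, 31.3, 31.1, 22.97 and 26.7 CPM in exercise 6 to 10, against 2.02, 6.76, 25.9, 30.3 and 18.3 CPM in sedentary 1 to 5. The low libraries were sedentary 1 and 2, and the other 3 overlapped the exercise libraries. Its log2 fold change was 0.70 ± 0.55 (edgeR adjusted p = 0.366), and 0.16 without them. Counts of Col6a6 were 3.74 to 8.40 times those of Col6a1 in exercise libraries and 0.178 to 3.83 times in sedentary libraries. Per 10000 CPM of beta cell markers Col6a6 stood at 1.30 to 1.75 CPM in exercise libraries and 0.945 to 2.49 CPM in sedentary libraries. The highest library was 2.64-fold above the lowest on that scale, and 15.5-fold in CPM. Col13a1, a transmembrane collagen of cell-matrix contacts, had the same low libraries, at 0.476 CPM in sedentary 1 and 2.23 CPM in sedentary 2, against 4.57 to 8.26 CPM in exercise libraries and 6.87 to 8.89 CPM in the other sedentary libraries. Per 10000 CPM of beta cell markers it stood at 0.339 to 0.496 CPM in exercise libraries and 0.444 to 0.599 CPM in sedentary libraries. The 10 beta cell markers had 0 calls by edgeR, 1 unadjusted p under 0.05, and 0 calls by DESeq2 and limma-voom. The part of beta cell content in these values was not tested.

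Col28a1, a short chain related to type VI collagen and known from peripheral nerve, had 1.17 to 1.54 CPM in exercise libraries and 0.178 to 1.21 CPM in sedentary libraries. Its log2 fold change of 1.13 ± 0.44 did not pass the test (edgeR adjusted p = 0.108), while DESeq2 called it (adjusted p = 0.0452) and edgeR did without sedentary 4 (1.52, adjusted p = 0.0325). The value was 0.66 without sedentary 1 and 2 (adjusted p = 0.153). Col8a1, a short chain network collagen of vessel walls, had a log2 fold change of 0.29, and -0.20 without sedentary 1 and 2.

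Levels were compared between chains per kb of the longest protein-coding transcript in GENCODE M21, the scale on which 1 gene's level can be set beside another's. Col4a1 led, at 12.5 ± 0.574 CPM per kb in exercise and 8.67 ± 4.51 CPM per kb in sedentary libraries (SD, n = 5 each). In exercise libraries Col4a2 (5.26), Lamc1 (3.56), Col6a6 (3.10) and Col3a1 (2.33 CPM per kb) were among the next. In sedentary libraries Col3a1 stood second at 3.94 ± 2.61 CPM per kb, next to Col4a2 at 3.89, and these neighbours did not differ beyond their spread. Summed CPM of the 15 basement membrane chains was 195 to 221 in exercise libraries and 96.0 to 213 in sedentary libraries, and that of the 8 fibrillar chains 41.1 to 55.7 and 19.6 to 111. The low end of both sedentary ranges was set by sedentary 2. Sedentary 1 was next lowest for basement membrane chains (111 CPM), but held 75.3 CPM of fibrillar chains, above every exercise library. Sedentary 3 to 5 held 186 to 213 CPM of basement membrane chains.

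The genes around the chains were counted in 3 lists. Of 33 genes of collagen biosynthesis, which encode the hydroxylases, chaperones, propeptide proteinases and crosslinking enzymes, 27 were tested and 0 were called by edgeR, with 6 unadjusted p under 0.05, 5 calls by DESeq2 and 0 by limma-voom. Their median log2 fold change was 0.44. When sedentary 1 and 2 were left out the median was 0.13 and 4 rose, namely the prolyl hydroxylase subunits P4ha1 and P4ha2, the lysyl hydroxylase Plod1 and the propeptide proteinase Bmp1, where 4.1% of all genes were higher. P4ha1 averaged 56.2 ± 7.49 CPM in exercise and 30.8 ± 14.3 CPM in sedentary libraries.

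Of 21 other basement membrane proteins 18 were tested, 1 rose and 4 fell, with a median of 0.21, beside 2.44% of all genes higher and 11.4% lower. In the 8 libraries other than sedentary 1 and 2 the median was -0.06, and 1 was higher and 2 lower, beside 4.1% and 8.68% of all genes. Ntn1, a netrin with laminin-like domains, rose by 1.43 (log2, edgeR adjusted p = 0.0373), with 11.9 to 37.2 CPM in exercise libraries and 4.25 to 11.2 CPM in sedentary libraries. Exercise 9 alone held 37.2 CPM, and the other exercise libraries held 11.9 to 14.6 CPM. With single libraries left out, its lowest log2 fold change was 1.04. Agrn, the heparan sulfate proteoglycan agrin, fell by 1.48, with 15.7 to 26.3 CPM in exercise libraries and 23.8 to 122 CPM in sedentary libraries. Tinag, a tubular basement membrane protein, fell by 2.43. Fbln1 and Smoc2, which are also on the fibroblast list, had log2 fold changes of -3.86 and -4.33, and of -2.60 and -2.89 without sedentary 1 and 2, and both fell in either comparison. Leaving out these 2 libraries, Agrn and Tinag did not pass the test, at -0.61 and -1.14.

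Of 18 receptors for collagen and laminin 17 were tested, 0 rose and 3 fell, beside 2.44% of all genes higher and 11.4% lower. The median was -0.36, and -0.11 without sedentary 1 and 2. Itga6, the laminin-binding integrin alpha 6 subunit, had 23.6 to 27.0 CPM in exercise libraries and 33.9 to 138 CPM in sedentary libraries, and fell by 1.41 (edgeR adjusted p = 0.0341). Itga2, a collagen-binding integrin subunit, fell by 1.92 and the syndecan Sdc1 by 1.89. All of these lower genes except Smoc2 were highest in sedentary 1 and 2, where summed small intestinal markers were also highest, and Smoc2 was highest in sedentary 2. In the 8 other libraries Itga6 fell by 0.55 (adjusted p = 0.00444) and the collagen receptor Lair1 by 0.99 (adjusted p = 0.0263), and Itga2 and Sdc1 did not pass the test. There 8.68% of all genes were lower. The calls of Ntn1, Tinag, Itga2, Itga6 and Sdc1 were each lost when single libraries were left out, with the highest adjusted p between 0.0757 and 0.0945. The part of intestinal content in these values was not tested.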

How the data were processed

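RNA was extracted with a column kit and stranded mRNA libraries were prepared, per the labels' protocols. The deposited table holds the authors' estimated counts per Ensembl gene and library. The tools fastp and kallisto are named, without versions, in the submitters' processing notes, while the sources used here do not give the build, the annotation release or how transcripts were summed. Estimated counts that reads of related chains share could be divided unevenly between genes. Values that were not whole (tolerance 1e-06) made up 12.6%, and all were rounded for the tests. Of 28459 genes with a count, 97.8% had a symbol. Lamb4 has no row, and Col4a3bp, not a chain, was left out.

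Exercise was compared with sedentary by edgeR 4.0.16 (quasi-likelihood test, R 4.3.3), after its default filter (minimum count 10, minimum total 15), which left 15298 genes. Scaling used the trimmed mean of M-values (TMM). Its factors were 0.669 to 1.06 in exercise and 1.07 to 1.20 in sedentary libraries, without overlap. P-values were adjusted by Benjamini-Hochberg over all genes tested, with a threshold of 0.05. CPM values were computed from the deposited counts and TMM-scaled library sizes. The fit was also tested on simulated data. Ratios of chains within a library are log2 of counts with 0.5 added, compared by an exact two-sided permutation test over 7 ratios (scipy 1.17.1). Alternatives were DESeq2 1.42.0, limma-voom (limma 3.58.1), other scalings and filters, single libraries left out, and leaving out sedentary 1 and 2.

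The members, classes, gene lists and alternatives were chosen with earlier results of these data known. Ratios to Col4a1 over all genes, ratios of Lamb3 and Col6a6 to partner chains, and levels per marker sum were added after seeing the data and are given as values. By rule, the text names the called chains with the lowest p and the 2 most abundant chains of the fibrillar, type IV, laminin, multiplexin, FACIT and type VI classes, and of the pathway lists up to 4 called genes of lowest p each, and the other genes were named after their values were seen. The values of 1 tested chain and 1 marker are not reported here, though both stay in the counts. Transcript lengths came from GENCODE M21, and promoters from RefSeq (GRCm38.p6, 32 members matched). Library totals were 15081922 to 23222704 counts. Since reads carry no molecular identifiers, counting error understates the spread.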

Additional observations from a re-analysis of the deposited data

Results flagged for a closer look

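In groups of 5, a library was marked where its gap to the nearest other library was over 0.71 of the group's range. Of 60 groups of values, 4 had such a library, and chance marks about 1 in 20 groups. Col16a1 stood at 4.13 CPM in exercise 6, with the other exercise libraries at 3.12 to 3.28 CPM. The log2 ratio of Col3a1 to Col4a1 was -3.39 in exercise 7, below the other exercise libraries at -2.69 to -2.44. Lamb3 stood at 20.3 CPM per 1000 CPM of small intestinal markers in exercise 9, the library with the lowest such markers (266 CPM). Col6a6 stood at 1.30 CPM per 10000 CPM of beta cell markers in exercise 6, the lowest of the exercise libraries.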

How the results depend on the processing

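No paired analysis was possible because replicate numbers run from 1 to 10 and no number is shared by the groups. Higher chains numbered 2 over all libraries, against 1 with library totals alone, with no filter, with limma-voom and without sedentary 1 and 2, and 1 to 3 with single libraries left out. DESeq2 called 4 chains, among them Col28a1 as higher beside Col7a1 and Col20a1. Lower chains numbered 1, against 2 with library totals (with Col6a1) or no filter (with Col6a4), 0 with limma-voom and 0 to 2 with single libraries left out. Col6a4 met the count rule through sedentary libraries alone, so its lower calls follow in part from that rule. Over all genes 374 were higher, against 159 with library totals, 1097 with DESeq2, 177 with limma-voom, 644 without sedentary 1 and 2 and 132 to 889 with single libraries left out. Lower genes numbered 1745, against 4408, 2642 and 339 under the same 3 settings and 800 to 2721 with single libraries left out.

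Library totals alone shifted the median of all genes by -0.34 (log2). Under them these chains turned negative: Col12a1 (-0.037), Col14a1 (-0.17), Col16a1 (-0.016), Col5a3 (-0.35), Lama2 (-0.0020), Lamb1 (-0.33), Col8a1 (-0.083), Col4a4 (-0.10), Col4a5 (-0.34) and Col6a5 (-0.21). Relative to that shift they lie near or above it. Without sedentary 1 and 2, Col14a1 (-0.041), Col5a3 (-0.32), Lamb1 (-0.31), Col8a1 (-0.20), Col13a1 (-0.21), Col4a4 (-0.065), Col4a5 (-0.23) and Col6a5 (-0.28) turned negative, as did the ratio of Col4a1 to Lamc1 (-0.15), and that of Col18a1 to Col15a1 turned positive (0.085). The cause was not tested. With single libraries left out, the sign changed within these ranges: Col4a5 -0.10 to 0.20, Col5a3 -0.23 to 0.24, Col6a3 -0.50 to 0.0060, Col6a5 -0.30 to 1.24, Lama4 -0.25 to 0.078, Lamb1 -0.17 to 0.18, Col4a1 to Col4a2 -0.00074 to 0.16, Col4a1 to Lamc1 -0.053 to 0.22 and Col18a1 to Col15a1 -0.55 to 0.28. Sedentary 2 alone turned the sign of both of the last ratios, to -0.053 and 0.28. None of these chains or ratios was called in any of these settings.

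Chains near 1 CPM rest on few reads a library, and with 5 libraries a group a chain at any level that missed the test is not shown to be unchanged.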

Other observations

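The other marker lists also differed between libraries. Summed CPM of 12 pericyte and smooth muscle markers was 115 to 162 in exercise libraries and 49.6 to 136 in sedentary libraries, and 0 of 9 tested passed the edgeR test (4 with an unadjusted p under 0.05, 2 called by DESeq2, 0 by limma-voom). Summed CPM of 6 mesothelial markers was 13.4 to 51.6 in exercise libraries and 45.7 to 865 in sedentary libraries, highest in sedentary 2. Krt19, which is also on the duct list, carried most of this sum, with 6.05 to 44.8 CPM in exercise libraries and 42.0 to 862 CPM in sedentary libraries, and fell. Msln, the other mesothelial marker tested, had a log2 fold change of 1.07 and did not pass the test. Of 8 duct markers 2 fell (Krt19 and Cftr), with summed CPM of 180 to 339 in exercise libraries and 230 to 1116 in sedentary libraries. Stomach epithelium markers summed to 225 to 710 CPM in exercise libraries and 253 to 5764 CPM in sedentary libraries, highest in sedentary 1, and 1 of 3 tested fell. Tff2 carried most of the sum in exercise libraries, with 220 to 698 CPM there and 236 to 1566.5 CPM in sedentary libraries. Gkn1 stood at 0 to 0.279 CPM in exercise libraries and at 637 CPM in sedentary 1. Of 8 macrophage markers 0 were called by edgeR (1 with an unadjusted p under 0.05, 1 called by DESeq2, 0 by limma-voom), with 178 to 478 CPM in exercise libraries and 46.2 to 672 CPM in sedentary libraries.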
